A study of Homo sapiens with 14 samples.

Results

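The genes of nonmuscle myosin II, the actin motor of contractile filaments, were followed with the kinase that switches it on in MCF-10A, an immortalised and non-tumorigenic human mammary epithelial cell line. The set holds 9 genes: the regulatory light chains MYL9, MYL12A and MYL12B, the essential light chain MYL6, the myosin light chain kinase gene MYLK, the nonmuscle heavy chains MYH9, MYH10 and MYH14, and the smooth muscle heavy chain MYH11. Each was found by its symbol in the deposited table, taking the locus of highest mean level where a symbol had several, out of 27543 named loci. All 9 had at least 1 FPKM in at least 2 of the 14 libraries and entered the tests, and MYH11 did so mainly through the Puro vector, where it was highest.

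A conventional myosin is a pair of heavy chains, each carrying 1 essential and 1 regulatory light chain. The heavy chain holds the ATPase head and the coiled-coil tail that packs into filaments, the essential light chain stiffens the lever arm, and phosphorylation of the regulatory light chain by MYLK or by other kinases lets the filament form and contract. MYL9 and MYH11 are the chains best known from smooth muscle, and MYL9 is a classical target of SRF, the serum response factor, and of its MRTF coactivators, which G-actin holds back.

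Poly(A) RNA was sequenced on day 2 after retroviral infection from 7 groups of 2 libraries each. The 4 MRTFB groups all carried a form of the coactivator that cannot bind G-actin. MRTFB dN had no further change, MRTFB dN dPY lacks binding to YAP as well, MRTFB dN Y305A lacks binding to SRF as well, and MRTFB dN Y305A/dPY lacks both. Their control here was the empty pMSCV Puro vector. YAP 5SA, a hyperactive YAP, was set against the empty pMSCV Hygro vector. The labels state neither which vector carried each construct nor whether the numbered samples of a group were separate cultures, so the p-values measure the spread between these libraries only. The study asked which genes MRTFB turns on through SRF and which through YAP. Below, MRTFB dN and MRTFB dN dPY are called the SRF-binding forms, and the others the Y305A forms.

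The regulatory light chain genes are close in sequence, which bears on whether reads can be assigned to one of them. A stretch of 75 coding bases, the length of 1 read, is shown for each from the GENCODE v29 transcripts of MYL9 (chromosome 20, coding bases 70 to 144), MYL12A (chromosome 18, coding bases 67 to 141) and MYL12B (chromosome 18, coding bases 70 to 144), with capitals at positions where the 3 genes are not all the same.
MYL9: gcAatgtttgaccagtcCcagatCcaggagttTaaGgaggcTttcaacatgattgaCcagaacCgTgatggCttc
MYL12A: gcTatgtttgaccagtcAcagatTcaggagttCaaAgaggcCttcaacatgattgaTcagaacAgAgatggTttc
MYL12B: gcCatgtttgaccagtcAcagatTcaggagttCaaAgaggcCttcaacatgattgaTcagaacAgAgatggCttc
Over the last 450 coding bases MYL9 is identical to MYL12A at 79.11% of positions and to MYL12B at 80.44%, while MYL12A and MYL12B are identical at 95.78%, with a longest shared run of 77 bases. Of the 75-base words in their full transcripts, MYL9 shares 0 with any other gene, and MYL12A and MYL12B share 3 with each other. MYH9 and MYH11 share 21 words, and for none of the 9 genes are more than 0.71% of the words shared with another gene. A single read could therefore be placed in nearly all of each transcript, and at the few shared words the authors' counting could have divided reads between genes.

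The values are FPKM, which are scaled by gene length, so levels can be compared between genes, but the table holds no counts and the absolute depth is unknown. Relative depth, read from the lowest values, was between 0.315 and 1.39 times that of Hygro vector replicate 1. Puro vector replicate 1 stood apart: it was the shallowest library, and 58.77% of its FPKM lay in loci without a gene name. In MRTFB dN dPY replicate 1 all but 1 of the expressed named loci on chromosome 8 and all those on 9, X and part of 7 are at 0, and none of the 9 genes lies there. RNA from the introduced MRTFB was seen under its older symbol MKL2, at 299.5 and 164.6 FPKM in MRTFB dN, at 286.5 and 171 in MRTFB dN dPY, at 404 and 294 in MRTFB dN Y305A, and at 610.1 and 343 in MRTFB dN Y305A/dPY, against 6.60 and 3.66 in the Puro vector. MKL2 was thus not lower in the Y305A forms, and no comparison was adjusted for its level. Markers of both mammary layers were present and moved with the groups: the 6 basal markers summed to 24760 and 46970 FPKM in MRTFB dN, against 1977 and 2054 FPKM in the Puro vector, and the 7 luminal markers to between 6965 and 9303 FPKM in MRTFB dN, against 345 and 778 FPKM in the Puro vector. KRT8 and KRT18 were listed at 0 in replicate 1 of both Y305A forms, where a 0 can be a failed estimate. Fibroblast, endothelial and striated muscle markers summed to at most 16.5, 14.9 and 4.62 FPKM in any library. The 5 leukocyte markers summed to between 1.35 and 4.05 FPKM in the SRF-binding forms and between 30.6 and 148.7 FPKM in the Y305A forms, against 28.5 and 139 FPKM in the Puro vector; nearly all of it was CD14. The 7 smooth muscle markers summed to between 329 and 525 FPKM in the SRF-binding forms and between 14.4 and 37.2 in the Y305A forms, against 10.2 and 20.9 in the Puro vector. LMOD1, a thin filament nucleator, made up most of that sum in the SRF-binding forms. KCNMB1 was between 15.6 and 32.2 FPKM there and at most 0.0439 FPKM in every other library. SMTN was between 31.8 and 40.1 FPKM in the SRF-binding forms and between 14.4 and 37.1 FPKM in the Y305A forms. DES and MYOCD were listed at 0 in the SRF-binding forms, and CNN1 and SYNM were at most 0.0571 and 0.113 FPKM there. The part of any of these marker lists in the results below was not tested. In bulk RNA a change in the share of cells that express a gene and a change in RNA per cell cannot be told apart.

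MYL9, the regulatory light chain of smooth muscle and of stress fibres, had the largest differences between groups of the 4 light chains in the set. It stood at 2835 and 2237 FPKM in MRTFB dN and at 3222 and 2362 FPKM in MRTFB dN dPY. In MRTFB dN Y305A it stood at 0.706 and 0.842 FPKM, and in MRTFB dN Y305A/dPY at 0.672 and 0.478 FPKM, against 0.606 and 1.34 FPKM in the Puro vector. The SRF-binding forms lay far above every other library, and the Y305A forms overlapped with the Puro vector. In MRTFB dN and MRTFB dN dPY it ranked between 28 and 36 among the named loci. On the log2(FPKM + 1) scale, which understates the change of genes near 0, MYL9 rose by 10.34 ± 0.70 (SE) in MRTFB dN over the Puro vector (limma, Benjamini-Hochberg adjusted p = 3e-06) and by 10.47 ± 0.70 in MRTFB dN dPY (adjusted p = 2.9e-06). Against the Hygro vector, in which MYL9 stood at 4.14 and 38.4 FPKM, the change in MRTFB dN was 7.47 (adjusted p = 3.3e-05). In the Y305A forms over the Puro vector the values were -0.13 and -0.30, with adjusted p of 0.91 and 0.78.

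MYL12A and MYL12B, the paired regulatory light chain genes that lie next to each other on chromosome 18 and are expressed in most cells, moved less. MYL12A stood at 1030 and 669 FPKM in MRTFB dN, at 1223 and 557 in MRTFB dN dPY, at 422 and 237 in MRTFB dN Y305A, and at 495 and 209.7 in MRTFB dN Y305A/dPY, against 51.6 and 128 in the Puro vector. Every MRTFB library was above both Puro libraries for this gene, and replicate 1 was above replicate 2 in all 4 MRTFB groups. MYL12A rose by 3.34 ± 0.62 in MRTFB dN over the Puro vector (adjusted p = 0.0025). Its sister MYL12B stood at 908 and 511 FPKM in MRTFB dN, at 1009 and 503 in MRTFB dN dPY, at 557 and 316 in MRTFB dN Y305A, and at 708 and 294 in MRTFB dN Y305A/dPY, against 115 and 183 in the Puro vector. The SRF-binding and the Y305A forms overlapped for MYL12B. It rose by 2.22 ± 0.55 in MRTFB dN over the Puro vector (adjusted p = 0.011), a call lost against the Hygro vector (0.76, adjusted p = 0.39) and when Puro vector replicate 1 (1.89, adjusted p = 0.066) or MRTFB dN replicate 1 (1.81, adjusted p = 0.097) was left out. MYL12A kept its call against the Hygro vector (2.11, adjusted p = 0.036).

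MYL6, the essential light chain of nonmuscle and smooth muscle myosin, was the most abundant of the 9 genes in every library. It stood at 8324 and 5288 FPKM in MRTFB dN, at 8136 and 5584 in MRTFB dN dPY, where it ranked between 9 and 15 among named loci. It stood at 3196 and 1721 FPKM in MRTFB dN Y305A, and at 3029 and 1568 in MRTFB dN Y305A/dPY, against 328 and 478 in the Puro vector. The 3 sets of libraries did not overlap. In the Hygro vector, however, MYL6 stood at 1317 and 2410 FPKM, which overlaps with both Y305A forms. It rose by 4.06 ± 0.58 in MRTFB dN over the Puro vector (adjusted p = 0.00057) and by 1.90 ± 0.58 over the Hygro vector (adjusted p = 0.043). Its change in MRTFB dN Y305A was 2.56 ± 0.58 over the Puro vector (adjusted p = 0.013), which was lost without Puro vector replicate 1 (2.29, adjusted p = 0.066), without MRTFB dN Y305A replicate 1 (2.12, adjusted p = 0.14) and against the Hygro vector (0.40, adjusted p = 0.85).

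**Figure D1:**
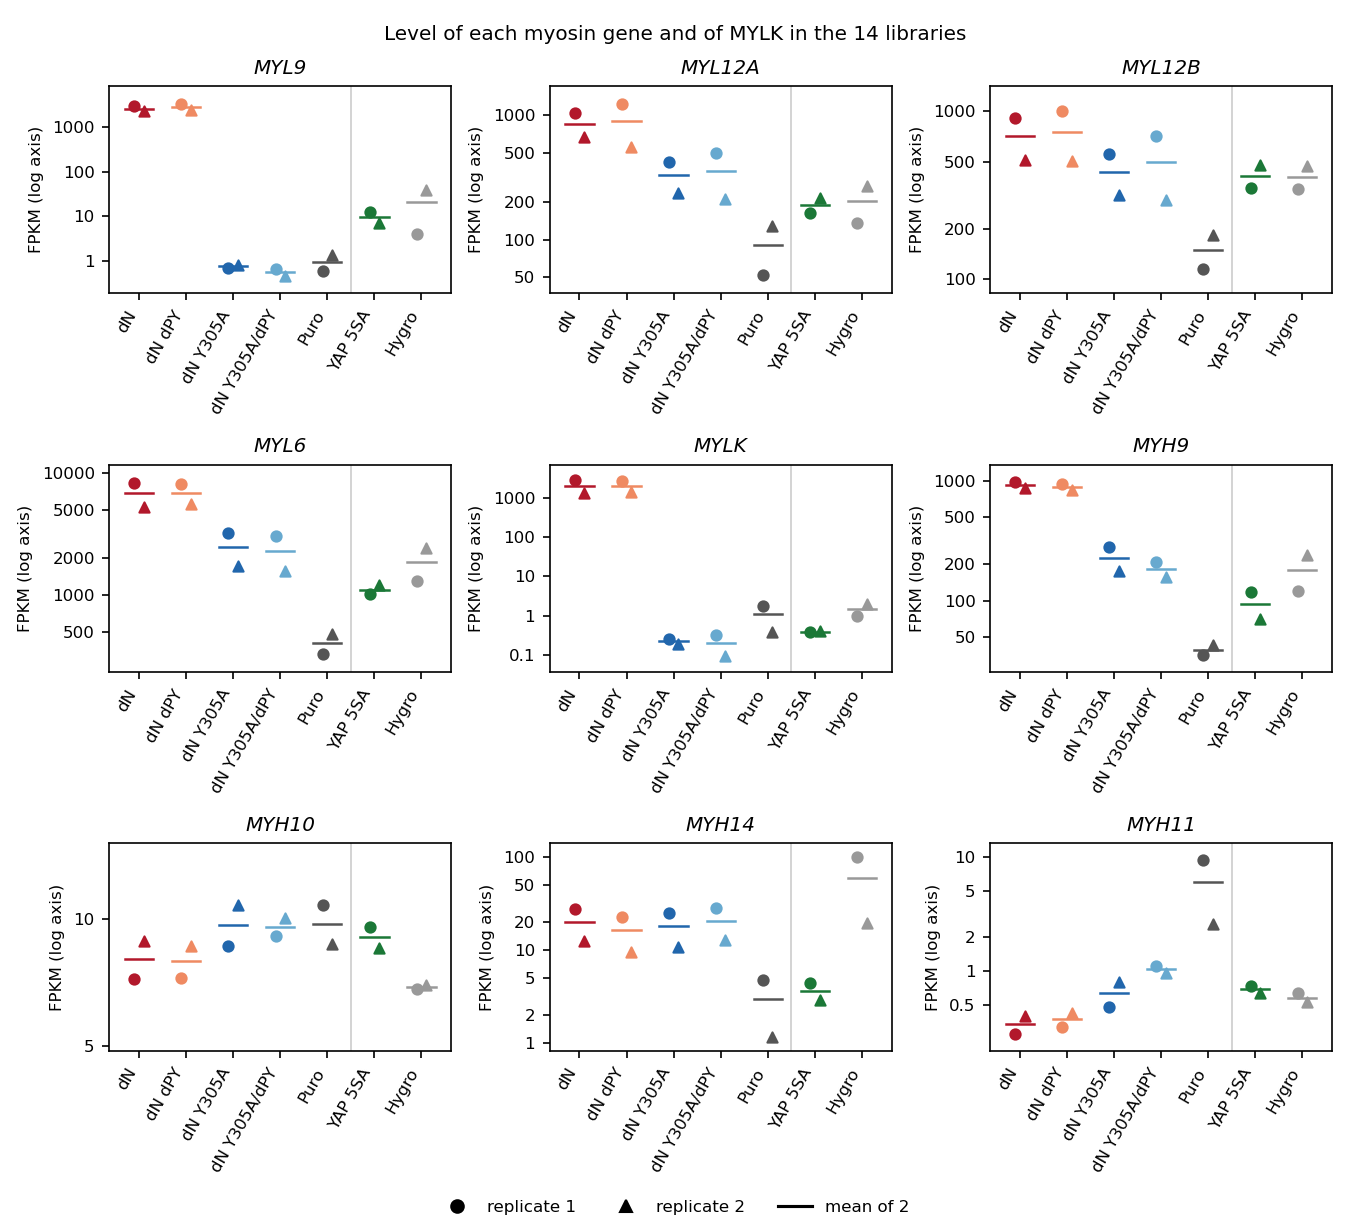
Level of each of the 9 genes in FPKM (log axis) in the 14 libraries. Circles are replicate 1, triangles replicate 2 and bars the mean of 2; MYL9 and MYLK lie at 1281 FPKM or more in MRTFB dN and MRTFB dN dPY and below 3 FPKM in the Y305A forms and the Puro vector, while MYH10 keeps between 6.83 and 10.8 FPKM everywhere.

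MYLK encodes the calcium and calmodulin dependent kinase that phosphorylates the regulatory light chains, and the same gene also gives telokin, a short smooth muscle protein made from a start inside it. Its main locus stood at 2725 and 1281 FPKM in MRTFB dN and at 2650 and 1378 FPKM in MRTFB dN dPY. It stood at 0.258 and 0.197 FPKM in MRTFB dN Y305A and 0.325 and 0.0926 FPKM in MRTFB dN Y305A/dPY, against 1.82 and 0.381 FPKM in the Puro vector. All 4 libraries of the SRF-binding forms were at 1281 FPKM or more and every other library of the series was at or below 2.00 FPKM. MYLK rose by 9.89 ± 0.45 in MRTFB dN over the Puro vector (adjusted p = 1.6e-07), by 9.92 ± 0.45 in MRTFB dN dPY (adjusted p = 1.7e-07), and by 9.59 ± 0.45 in MRTFB dN when the Hygro vector was the control (adjusted p = 2.1e-07). The Y305A forms differed from the Puro vector by -0.69 and -0.71, which did not pass (adjusted p = 0.27 and 0.25). A second, weaker locus that carries the symbol together with the antisense gene MYLK-AS1 was between 17.7 and 24.6 FPKM in the SRF-binding forms and between 1.28 and 3.42 FPKM in the Y305A forms, against 2.41 to 9.96 FPKM over the libraries of both vectors. The table gives no positions, so which transcripts of the gene each locus holds is not known here.

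The one promoter window that RefSeq gives for MYLK belongs to a start 96.2% of the way along the gene from its 5′ end. It is therefore an internal window and not the promoter at the 5′ end of the gene. It is shown because MYLK had the smallest adjusted p of the 9 genes in MRTFB dN over the Puro vector, with capitals at a CArG box, the SRF motif, and at CATTCC, the reverse complement of the TEAD motif GGAATG (GRCh38.p14, chr3:123620499-123620798, minus strand, written 5′ to 3′, the internal start following base 250).
MYLK promoter: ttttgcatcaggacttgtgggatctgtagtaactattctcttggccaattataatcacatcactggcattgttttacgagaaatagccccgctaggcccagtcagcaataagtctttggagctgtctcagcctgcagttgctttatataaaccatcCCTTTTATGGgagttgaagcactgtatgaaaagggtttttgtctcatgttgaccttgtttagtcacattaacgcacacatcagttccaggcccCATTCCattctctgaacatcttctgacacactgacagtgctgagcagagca
Both strands were searched, and the motifs do not overlap. The first base of the CArG box lies at -94 and that of CATTCC at -1, counted from this internal start. A CArG box occurs in 1.29% and GGAATG or its complement in 14.03% of 35116 promoter windows of the same length. Among the 9 genes, 7 had windows in the table, 11 windows in all. MYLK, by its internal window, was the only one of the 7 with a CArG box, and MYLK, MYH9, MYH10 and MYL12A had the TEAD motif. Counted by gene, 438 of 27305 genes had a CArG box and 4567 the TEAD motif in at least 1 window.

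MYH9, the heavy chain of nonmuscle myosin IIA and the main heavy chain of these cells, followed the light chains. It stood at 970.2 and 866 FPKM in MRTFB dN, at 943 and 842 in MRTFB dN dPY, at 278 and 177 in MRTFB dN Y305A, and at 209 and 157 in MRTFB dN Y305A/dPY, against 35.3 and 42.4 in the Puro vector. The SRF-binding forms, the Y305A forms and the Puro vector did not overlap, while the Hygro vector, at 121 and 241 FPKM, overlapped with the Y305A forms. MYH9 rose by 4.53 ± 0.41 in MRTFB dN over the Puro vector (adjusted p = 2.4e-05) and by 2.42 ± 0.41 over the Hygro vector (adjusted p = 0.0019). MRTFB dN Y305A had it at 2.49 ± 0.41 over the Puro vector (adjusted p = 0.0048) but at 0.38 over the Hygro vector (adjusted p = 0.78), and the call was lost without MRTFB dN Y305A replicate 1 (2.17, adjusted p = 0.068).

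MYH10, nonmuscle myosin IIB, stood at 7.20 and 8.86 FPKM in MRTFB dN, against 10.8 and 8.71 FPKM in the Puro vector, and in all 14 libraries it was between 6.83 and 10.8 FPKM. Its change in MRTFB dN over the Puro vector was -0.25 ± 0.22 (adjusted p = 0.39), with a 95% interval from -0.73 to 0.23. It passed in none of the 11 comparisons. The promoters of the heavy chain that rose and of the one that did not are shown together, with the TEAD motif in capitals (GRCh38.p14, MYH9 at chr22:36387918-36388217 and MYH10 at chr17:8630676-8630975, both minus strand, written 5′ to 3′).
MYH9 promoter: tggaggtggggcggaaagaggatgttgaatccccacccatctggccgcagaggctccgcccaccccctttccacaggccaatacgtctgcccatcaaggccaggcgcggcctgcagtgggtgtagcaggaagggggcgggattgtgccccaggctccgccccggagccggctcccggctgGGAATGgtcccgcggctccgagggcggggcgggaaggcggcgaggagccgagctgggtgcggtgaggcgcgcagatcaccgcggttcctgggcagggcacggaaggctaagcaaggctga
MYH10 promoter: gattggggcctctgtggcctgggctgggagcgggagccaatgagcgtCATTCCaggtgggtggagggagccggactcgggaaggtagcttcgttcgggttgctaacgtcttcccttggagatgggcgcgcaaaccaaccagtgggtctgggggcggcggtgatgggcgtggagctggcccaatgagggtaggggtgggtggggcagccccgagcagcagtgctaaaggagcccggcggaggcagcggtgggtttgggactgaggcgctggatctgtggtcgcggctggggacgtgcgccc
The motif begins at -70 in MYH9 and at -203 in MYH10, and neither window holds a CArG box. A match is a description of these letters and not a sign of binding.

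MYH14, the heavy chain of nonmuscle myosin IIC, which is best known from epithelia, had the largest standard error of the 9 genes in the fit. It stood at 27.7 and 12.5 FPKM in MRTFB dN, at 23.1 and 9.65 in MRTFB dN dPY, at 25.3 and 10.9 in MRTFB dN Y305A, and at 28.5 and 13.0 in MRTFB dN Y305A/dPY, against 4.80 and 1.15 in the Puro vector. In the 4 MRTFB groups replicate 1 was between 2.20 and 2.39 times replicate 2, a ratio close to constant across the groups. MYH14 rose by 2.48 ± 0.79 in MRTFB dN over the Puro vector (adjusted p = 0.031), but against the Hygro vector, at 101.0 and 19.6 FPKM, the value was -1.22 (adjusted p = 0.33). Its call over the Puro vector was also lost without Puro vector replicate 2 (1.76, adjusted p = 0.17) and without MRTFB dN replicate 1 (1.93, adjusted p = 0.20). The smooth muscle heavy chain MYH11 stood at 0.281 and 0.403 FPKM in MRTFB dN, against 9.35 and 2.60 FPKM in the Puro vector, and between 0.281 and 1.12 FPKM in every library other than those of the Puro vector. It fell by 2.19 ± 0.38 on the log2 scale in MRTFB dN over the Puro vector (adjusted p = 0.0017), and over the Hygro vector the value was -0.24 (adjusted p = 0.72). Both Puro libraries were above all 12 others for MYH11, and it entered the tests mainly through them. Its calls in every comparison with the Puro vector, counted below, are therefore a description only.

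Counted over the set, 7 of the 9 genes rose and MYH11 fell in MRTFB dN over the Puro vector, where 21.8% of all 13137 tested genes rose and 15.0% fell. In MRTFB dN dPY 6 rose and MYH11 fell (all genes 21.0% and 14.8%), in MRTFB dN Y305A 3 rose and MYH11 fell (14.2% and 11.0%), and in MRTFB dN Y305A/dPY 5 rose and MYH11 fell (15.0% and 11.4%). The median log2 change of the 9 genes was 3.34 in MRTFB dN and 3.33 in MRTFB dN dPY, and 1.52 in MRTFB dN Y305A and 1.64 in MRTFB dN Y305A/dPY, beside medians between 0.07 and 0.10 for all genes. These 4 comparisons share the Puro libraries. In MRTFB dN Y305A and MRTFB dN Y305A/dPY the calls rest on single libraries. With 1 library left out in turn, the number of calls varied widely, both among the 9 genes and over all genes. Without Puro vector replicate 1, MYL12A was at 1.30 (adjusted p = 0.24) and 1.33 (adjusted p = 0.22) in these 2 forms. It also missed the threshold without MRTFB dN Y305A replicate 2 (2.36, adjusted p = 0.055). With replicate 1 of the form itself left out, no call among the 9 genes over the Puro vector was kept in either form. Calls over all genes were far fewer in these fits too. The median log2 change of the 9 genes was then 1.12 in MRTFB dN Y305A and 1.01 in MRTFB dN Y305A/dPY. In MRTFB dN dPY over the Puro vector, MYL12B lost its call without Puro vector replicate 1 (1.95, adjusted p = 0.059) or MRTFB dN dPY replicate 1 (1.78, adjusted p = 0.084). MYH14 (2.52) and MYL12B (1.64) in MRTFB dN Y305A/dPY did not pass when any of Puro vector replicate 1, Puro vector replicate 2 or the form's replicate 1 was left out. Against the Hygro vector 5 of the 9 genes rose and 0 fell in MRTFB dN (all genes 12.0% and 7.1%), and the same 5 rose in MRTFB dN dPY (12.3% and 8.24%): MYL6, MYL9, MYL12A, MYLK and MYH9. Against that vector 0 passed in MRTFB dN Y305A (1.32% of all genes higher and 1.28% lower) and 1 in MRTFB dN Y305A/dPY (1.31% and 1.38%), where MYL9 was lower (-3.18, adjusted p = 0.042). Direction and calls for MYL9, MYLK, MYL6, MYL12A and MYH9 in the SRF-binding forms were thus the same with either vector.

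**Figure D2:**
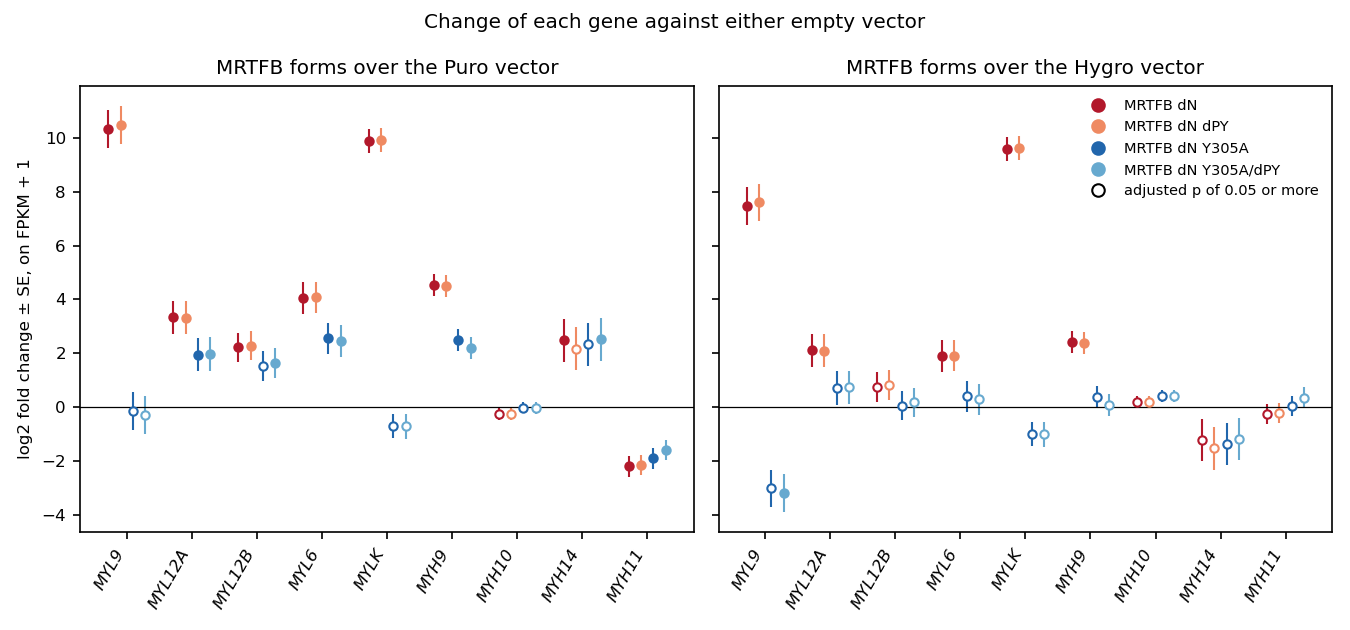
log2 fold change (± SE, on FPKM + 1) of the 9 genes in the 4 MRTFB forms over the Puro vector (left) and over the Hygro vector (right), n = 2 libraries a group, with open points where adjusted p is 0.05 or more. MYL9 and MYLK stand high with either vector in MRTFB dN and MRTFB dN dPY, while MYH14 and MYH11 depend on the vector.

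The shares of the genes within the set differed along with their levels. MYL9 held between 59.1% and 69.0% of the summed FPKM of the 3 regulatory light chain genes in the 4 libraries of the SRF-binding forms, and at most 0.152% in the 4 libraries of the Y305A forms. The means were 63.2 ± 4.85% and 0.0937 ± 0.0420% (SD, n = 4 libraries each; exact permutation test, two-sided p = 0.029, the smallest that 4 against 4 can give). Same-numbered MRTFB libraries deviated together (r from 0.301 to 0.645), and permuted within replicate pairs the share of MYL9 and that of MYH9 below each had an exact p of 0.12, the smallest that 4 pairs allow, so with the replicate block neither share passes and neither could. MYL7, the atrial regulatory light chain described below, is outside the set. With MYL7 added to the sum, a choice made after the data were seen, MYL9 held 30.1 ± 2.99% in the SRF-binding forms and 0.0937 ± 0.0420% in the Y305A forms, and MYL7 itself held 44.7% to 57.6% in the SRF-binding forms. In the Puro vector the share of MYL9 among the 3 genes was 0.362% and 0.430%, in YAP 5SA 2.40% and 1.04%, and in the Hygro vector 0.854% and 4.93%. The 2 groups in each set of 4 are not replicates of 1 construct, and they were joined because both bind, or both lack binding to, SRF. MYL12B led the 3 genes in every library outside the SRF-binding forms, with 56.8% to 71.0% of the sum. The ratio of MYL12A to MYL12B was between 1.11 and 1.31 in the SRF-binding forms and below 1 in the 10 other libraries, between 0.396 and 0.759.

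Among the nonmuscle heavy chains MYH9 held 97.2 ± 0.622% of the summed FPKM of MYH9, MYH10 and MYH14 in the SRF-binding forms and 87.5 ± 2.07% in the Y305A forms (SD, n = 4 libraries each; exact permutation test, two-sided p = 0.029, again the smallest possible). In the Puro vector it held 69.4% and 81.1%, and in the Hygro vector 52.8% and 90.1%, the lower value being that of replicate 1, where MYH14 reached 44.2%. The sum of MYL9, MYL12A and MYL12B was 4773 and 3417 FPKM in MRTFB dN, against 167 and 313 FPKM in the Puro vector, and the sum of the 3 heavy chains was 1005 and 887 FPKM in MRTFB dN, against 50.9 and 52.2 FPKM in the Puro vector. MYL6 stood at between 1.49 and 1.74 times the sum of these 3 light chains in the SRF-binding forms and between 2.52 and 3.26 times in the Y305A forms, against 1.96 and 1.53 times in the Puro vector. With MYL7 in the sum the ratio was between 0.657 and 0.825 in the SRF-binding forms and was again 2.52 to 3.26 in the Y305A forms.

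**Figure D3:**
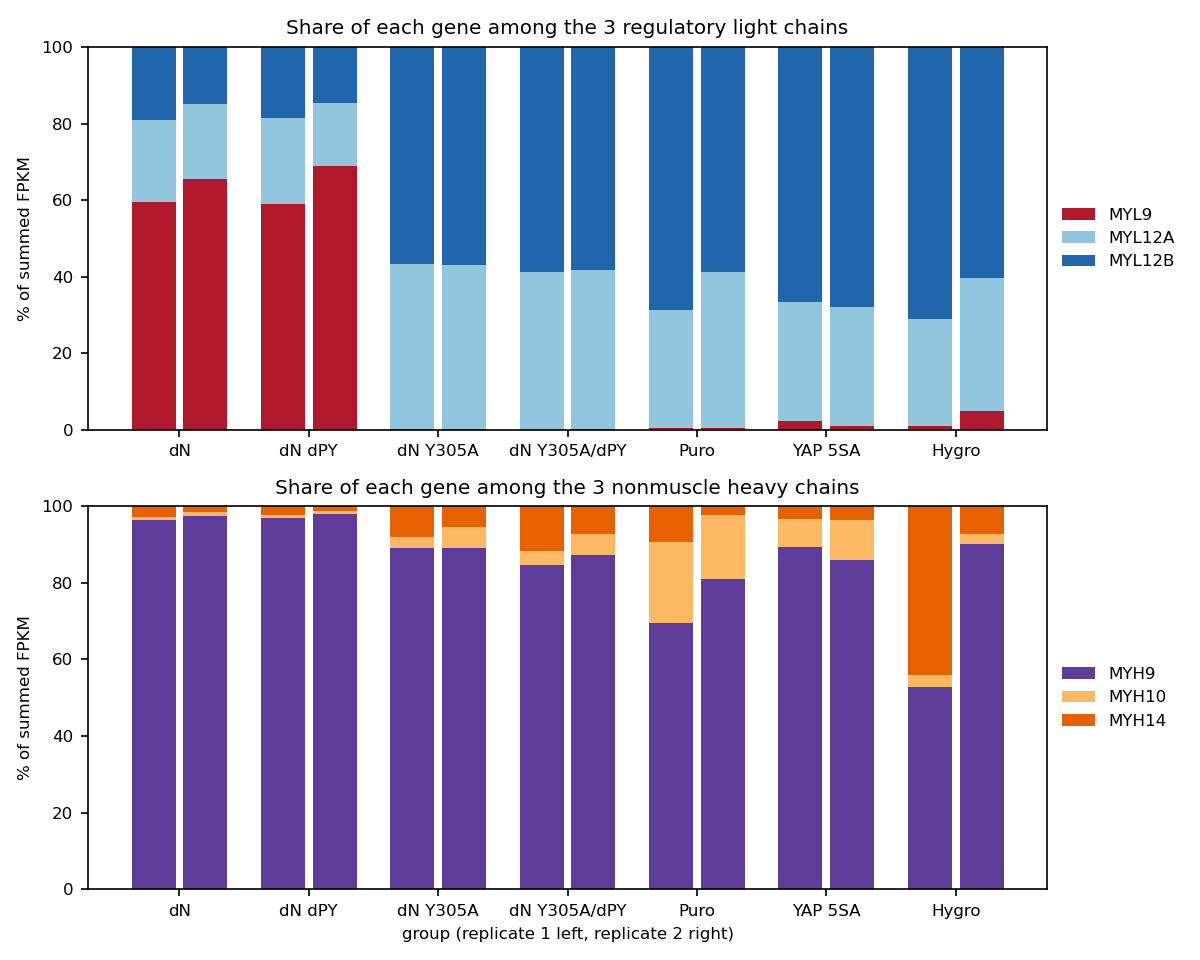
Share of each gene, in % of summed FPKM, among the 3 regulatory light chains of the set, without MYL7 (top), and the 3 nonmuscle heavy chains (bottom), 1 bar a library. MYL9 takes 59.1% to 69.0% of the regulatory light chains in MRTFB dN and MRTFB dN dPY and at most 4.93% in any other library.

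Loss of SRF binding was tested between MRTFB groups. No vector enters the difference, but the spread behind the p-values was estimated from all 14 libraries, the vectors among them. In MRTFB dN Y305A against MRTFB dN, 3 of the 9 genes fell and 0 rose (all genes 10.6% lower and 6.13% higher). MYL9 changed by -10.47 ± 0.70 (adjusted p = 2.9e-06) and MYLK by -10.57 ± 0.45 (adjusted p = 9.4e-08), and MYH9 by -2.04 ± 0.41 (adjusted p = 0.0057). On FPKM + 1 these are 1421-fold, 1523-fold and 4.11-fold lower levels. The MYH9 call was lost without MRTFB dN Y305A replicate 2 (-1.72, adjusted p = 0.062). MYL6 was 2.83-fold lower and MYL12A 2.62-fold lower, with no overlap between the groups, and neither passed (adjusted p = 0.11 and 0.17). MYL12B (-0.70), MYH14 (-0.15), MYH10 (0.24) and MYH11 (0.29) did not pass either.

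The same test in the background of dPY, MRTFB dN Y305A/dPY against MRTFB dN dPY, compares other libraries within the same fit. There too 3 genes fell and 0 rose (all genes 10.6% and 6.72%): MYL9 (-10.78 ± 0.70, adjusted p = 2.5e-06), MYLK (-10.63 ± 0.45, adjusted p = 9.9e-08) and MYH9 (-2.29 ± 0.41, adjusted p = 0.0028). In these 4 groups MYL6, MYL12A and MYL12B were higher in replicate 1 than in replicate 2 throughout, by 1.46 to 2.41 times. With the replicate number as a block and the 4 MRTFB groups fitted alone, an alternative chosen after the data were seen, MYL6 (-1.50, adjusted p = 0.0015), MYL12A (-1.39, adjusted p = 0.0021) and MYL12B (-0.70, adjusted p = 0.016) also passed in MRTFB dN Y305A against MRTFB dN, which gave 6 of 8 tested genes that fell (20.7% of all genes fell in that fit). In MRTFB dN Y305A/dPY against MRTFB dN dPY it likewise gave 6 of 8 (all genes 20.2%). Whether the numbers mark a shared day or batch is not stated in the labels.

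Loss of YAP binding was tested in the same way. In MRTFB dN dPY against MRTFB dN, 0 of the 9 genes passed (0.236% of all genes did by limma, 31 of them, and 441 had an unadjusted p under 0.05). MYL9 differed by 0.13 with a 95% interval from -1.42 to 1.68, MYLK by 0.03 with an interval from -0.96 to 1.02, and MYH9 by -0.04 with an interval from -0.94 to 0.86. The intervals of MYL6 (-1.26 to 1.30) and MYL12A (-1.37 to 1.35) still allow changes of over 2-fold. When dPY was added to MRTFB dN Y305A, 0 of the 9 genes passed (0.0152% of all genes, 2 of them, with 270 at an unadjusted p under 0.05). MYH9 was at -0.29 there with an interval from -1.20 to 0.61.

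**Figure D4:**
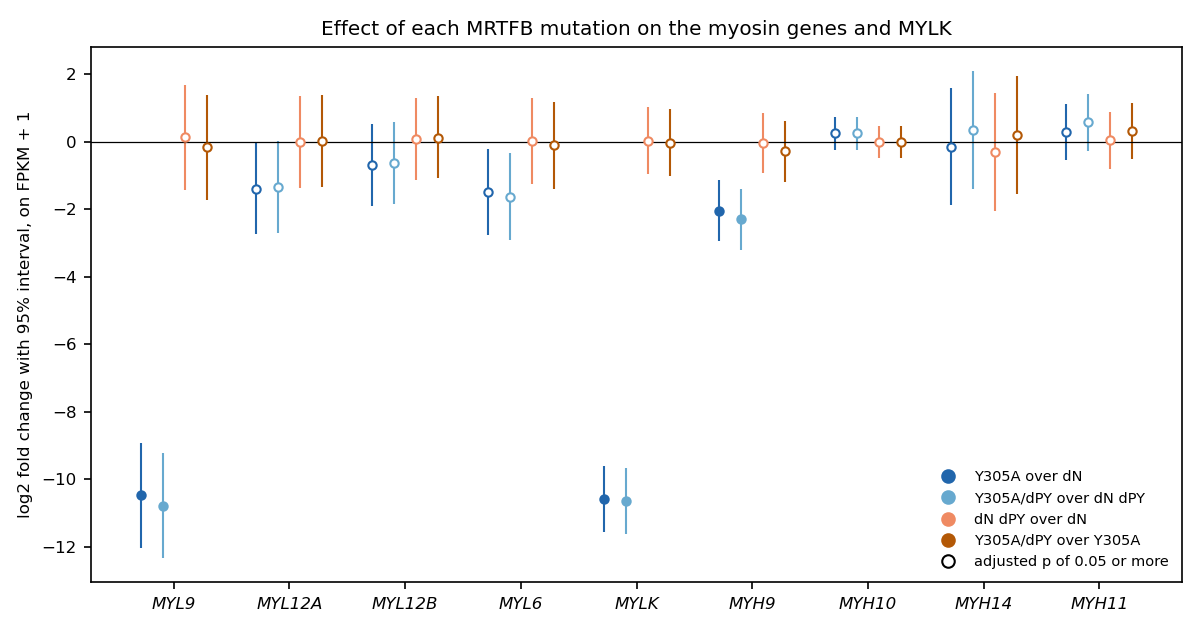
log2 fold change with 95% interval (on FPKM + 1, n = 2 libraries a group) of the 9 genes for loss of SRF binding (blue) and loss of YAP binding (orange), with open points where adjusted p is 0.05 or more. Loss of SRF binding sets MYL9 and MYLK below -10 in both backgrounds, and the values for loss of YAP binding lie between -0.30 and 0.32.

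YAP 5SA over the Hygro vector asks what hyperactive YAP does to these genes by itself. Of the 9, 1 fell and 0 rose in YAP 5SA (all genes 4.3% lower and 3.91% higher). That gene was MYH14, at 4.44 and 2.90 FPKM in the YAP 5SA libraries, against 101.0 and 19.6 FPKM in the Hygro vector (-3.32 ± 0.79, adjusted p = 0.029). The call was lost without Hygro vector replicate 1 (-2.16, adjusted p = 0.15) and with YAP 5SA replicate 1 or replicate 2 left out (adjusted p = 0.11 and 0.21), and against the Puro vector the value was 0.38 (adjusted p = 0.79). MYL9 stood at 12.6 and 7.25 FPKM in the YAP 5SA libraries, against 4.14 and 38.4 FPKM in the Hygro vector, and the groups overlapped (-0.43, 95% interval from -1.97 to 1.12). Both YAP 5SA libraries were above those of the Puro vector, at 0.606 and 1.34 FPKM. Without Hygro vector replicate 1 MYL9 passed with a lower level in YAP 5SA (-1.90, adjusted p = 0.029). MYLK stood at 0.380 and 0.410 FPKM in the YAP 5SA libraries, against 0.964 and 2.00 FPKM in the Hygro vector (-0.80, adjusted p = 0.32). MYH9 stood at 119 and 69.9 FPKM in the YAP 5SA libraries, against 121 and 241 FPKM in the Hygro vector (-0.90, adjusted p = 0.22). MYL12A and MYL12B were at -0.03 and 0.02, with intervals from -1.39 to 1.33 and from -1.20 to 1.23. With the Puro vector as control, 0 of the 9 genes rose and 1 fell in YAP 5SA. Of all 13137 tested genes 731 rose and 558 fell there. The median change of the 9 genes was then 1.2, against -0.43 over the Hygro vector. The direction of that median thus turned on the choice of vector.

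The difference between the response to MRTFB dN (over the Puro vector) and the response to YAP 5SA (over the Hygro vector) was tested as an interaction. It passed for 7 of the 9 genes (all genes 29.0%): MYL9 (10.77 ± 0.99), MYLK (10.69 ± 0.63), MYH14 (5.79 ± 1.11), MYH9 (5.43 ± 0.58), MYL6 (4.75 ± 0.82), MYL12A (3.36 ± 0.87) and, in the other direction, MYH11 (-2.28 ± 0.53). MYL12A lost the call without any one of Hygro vector replicate 2, YAP 5SA replicate 1, Puro vector replicate 1 and MRTFB dN replicate 1 (adjusted p of 0.059, 0.06, 0.055 and 0.07). MYL12B (2.20, adjusted p = 0.055) passed without Puro vector replicate 2 (2.54, adjusted p = 0.045). With the vectors exchanged only MYL9 (5.02, adjusted p = 0.0078) and MYLK (10.09, adjusted p = 4.8e-06) passed (all genes 13.1%). For the remaining members the test therefore turns on which vector is the control.

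The empty vectors themselves differed in these genes. In the Puro vector against the Hygro vector 1 of the 9 genes was higher and 4 were lower (all genes 5.68% and 8.53%). MYH11 was higher (1.94 ± 0.38, adjusted p = 0.014). MYH14 (-3.70 ± 0.79, adjusted p = 0.018), MYL9 (-2.88 ± 0.70, adjusted p = 0.026), MYL6 (-2.17 ± 0.58, adjusted p = 0.035) and MYH9 (-2.11 ± 0.41, adjusted p = 0.014) were lower. Without Puro vector replicate 1, the library that stood apart, MYH11 and MYH14 kept their calls. MYL6 (-1.89, adjusted p = 0.12), MYL9 (-2.60, adjusted p = 0.11) and MYH9 (-1.99, adjusted p = 0.05) did not pass without it. Without Hygro vector replicate 2, MYH14 alone passed (-4.85, adjusted p = 0.016), and it missed the threshold without Hygro vector replicate 1 (-2.55, adjusted p = 0.066) or Puro vector replicate 2 (-2.98, adjusted p = 0.054). With 2 libraries a vector, an effect of the vector and one of these libraries cannot be told apart.

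Genes that act on the motor were taken as a list of 35. In MRTFB dN over the Puro vector 17 of the 35 rose and 3 fell, with a median of 0.78 beside 0.09 for all tested genes, of which 21.8% rose and 15.0% fell. Against the Hygro vector 8 rose and 4 fell (all genes 12.0% and 7.1%). CALD1, caldesmon, which holds actomyosin in check, stood at 1342 and 1190 FPKM in MRTFB dN, against 27.5 and 26.6 FPKM in the Puro vector, and rose by 5.49 ± 0.38 (adjusted p = 7.2e-06). NUAK1, a kinase that acts on the myosin phosphatase, rose by 3.52 ± 0.26 (adjusted p = 6.2e-06), and SHROOM3, an actin-binding protein of apical junctions, by 2.93 ± 0.31 (adjusted p = 6.8e-05). The locus that joins S100A2, S100A3 and S100A4 fell by 3.58 ± 0.92 on the log2 scale (adjusted p = 0.013). S100A4 is known to loosen nonmuscle myosin IIA filaments, and its reads cannot be told apart from those of its neighbours in that locus.

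Within this list 4 genes are given singly, a choice made after their values were seen. PPP1R12A, the myosin-targeting subunit of the phosphatase, stood at 36.3 and 33.4 FPKM in MRTFB dN, against 6.89 and 4.91 FPKM in the Puro vector (2.39, adjusted p = 8.9e-05), and over the Hygro vector the change was 2.08 (adjusted p = 0.00025). DAPK3, a light chain kinase at a locus shared with a microRNA gene, rose by 2.92 over the Puro vector (adjusted p = 0.00053) and was at 0.83 over the Hygro vector (adjusted p = 0.2). Its relative DAPK2 was lower in MRTFB dN with either vector (-1.87, adjusted p = 0.002 over Puro, and -1.69, adjusted p = 0.0047 over Hygro). CIT, citron kinase, also at a locus shared with a microRNA gene, was lower over the Puro vector (-1.80, adjusted p = 0.0037) and at 0.15 over the Hygro vector (adjusted p = 0.83). In MRTFB dN Y305A against MRTFB dN 8 of the 35 fell and 2 rose (all genes 10.6% and 6.13%), with a median of -0.30 beside 0.03 for all genes. CALD1 (-4.22), NUAK1 (-3.27), SHROOM3 (-2.56) and PPP1R12A (-2.22) were among those that fell, each with an adjusted p of at most 0.00019. In YAP 5SA over the Hygro vector 3 of the 35 rose and 0 fell (all genes 3.91% and 4.3%): ANLN, anillin, which scaffolds myosin at the cleavage furrow (2.17 ± 0.41, adjusted p = 0.011), NUAK1 (1.12 ± 0.26, adjusted p = 0.027) and the death-associated kinase gene DAPK1 (1.39, adjusted p = 0.015). Most of the calls named for YAP 5SA over the Hygro vector were lost when either YAP 5SA library was left out.

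The 12 actin-side genes of stress fibres all rose in MRTFB dN over the Puro vector (all genes 21.8%), with a median of 3.94, and 10 of them rose over the Hygro vector (all genes 12.0%). The tropomyosin TPM1, which decorates the filaments that myosin II walks on, stood at 8948 and 5667 FPKM in MRTFB dN, against 19.2 and 17.3 FPKM in the Puro vector (8.53 ± 0.64, adjusted p = 6.2e-06). TPM2 (6.29 ± 0.60), TPM4 (5.22 ± 0.60) and FLNA, the crosslinker filamin A (5.15 ± 0.68), followed. In MRTFB dN Y305A against MRTFB dN 9 of the 12 fell and 0 rose (all genes 10.6% and 6.13%; median -2.77), TPM1 among them (-7.79 ± 0.64, adjusted p = 1.3e-05). TPM3 did not pass (0.17, adjusted p = 0.88). TPM1 was also the only one of the 12 to rise in YAP 5SA over the Hygro vector (2.43 ± 0.64, adjusted p = 0.043). The limit given above for calls in YAP 5SA, which rest on single libraries, applies here too.

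A list of 22 genes held sarcomeric and other conventional myosin genes and the kinase genes MYLK2, MYLK3 and MYLK4. Of the 22, 4 reached the level needed for a test, and 1 of these rose in MRTFB dN over the Puro vector (all genes 21.8%). This was MYL7, the atrial regulatory light chain, another regulatory light chain. MYL7 stood at 5603 and 4634 FPKM in MRTFB dN, at 4405 and 3791 in MRTFB dN dPY, more than MYL9 in each of these libraries. It stood at 0.338 and 0 FPKM in MRTFB dN Y305A and at 0 in both libraries of MRTFB dN Y305A/dPY, against 0 and 0.212 FPKM in the Puro vector. With the pseudocount of 1, on which a change against levels near 0 depends, it changed by 12.18 ± 0.44 in MRTFB dN over the Puro vector (adjusted p = 3e-08) and by -12.11 ± 0.44 in MRTFB dN Y305A against MRTFB dN (adjusted p = 3.7e-08). The other 3 tested genes, MYH7B, MYL5 and MYL6B, did not pass in either comparison. Of 24 unconventional myosins, the single-headed or cargo motors outside class II, 15 were tested, and 7 rose and 1 fell in MRTFB dN over the Puro vector (all genes 21.8% and 15.0%). Over the Hygro vector 2 of the 15 rose and 0 fell, near the share of all genes (12.0% and 7.1%). MYO1E (2.75 ± 0.45, adjusted p = 0.0013) and MYO1C (2.30 ± 0.31, adjusted p = 0.00035), which link membranes to actin, had the largest called changes at a mean of 3 FPKM or more, and neither passed over the Hygro vector (1.41, adjusted p = 0.053, and 0.78, adjusted p = 0.11). MYO16 rose with either vector (1.74, adjusted p = 0.0045 over Puro, and 1.82, adjusted p = 0.005 over Hygro). In MRTFB dN Y305A against MRTFB dN it fell (-2.32, adjusted p = 0.0012). In MRTFB dN dPY against MRTFB dN 1 of the 15 fell, and 0 of the tested genes of the 3 other lists passed (all genes 0.236% in either direction). It was MYO1A, a class I myosin of microvilli, at 1.23 and 0.791 FPKM in MRTFB dN dPY, against 6.60 and 4.65 FPKM in MRTFB dN (-1.71, adjusted p = 0.0082). MYO1A entered the tests through MRTFB dN, the group where it was highest. Its levels are near the floor, and this call is a description only.

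**Figure D5:**
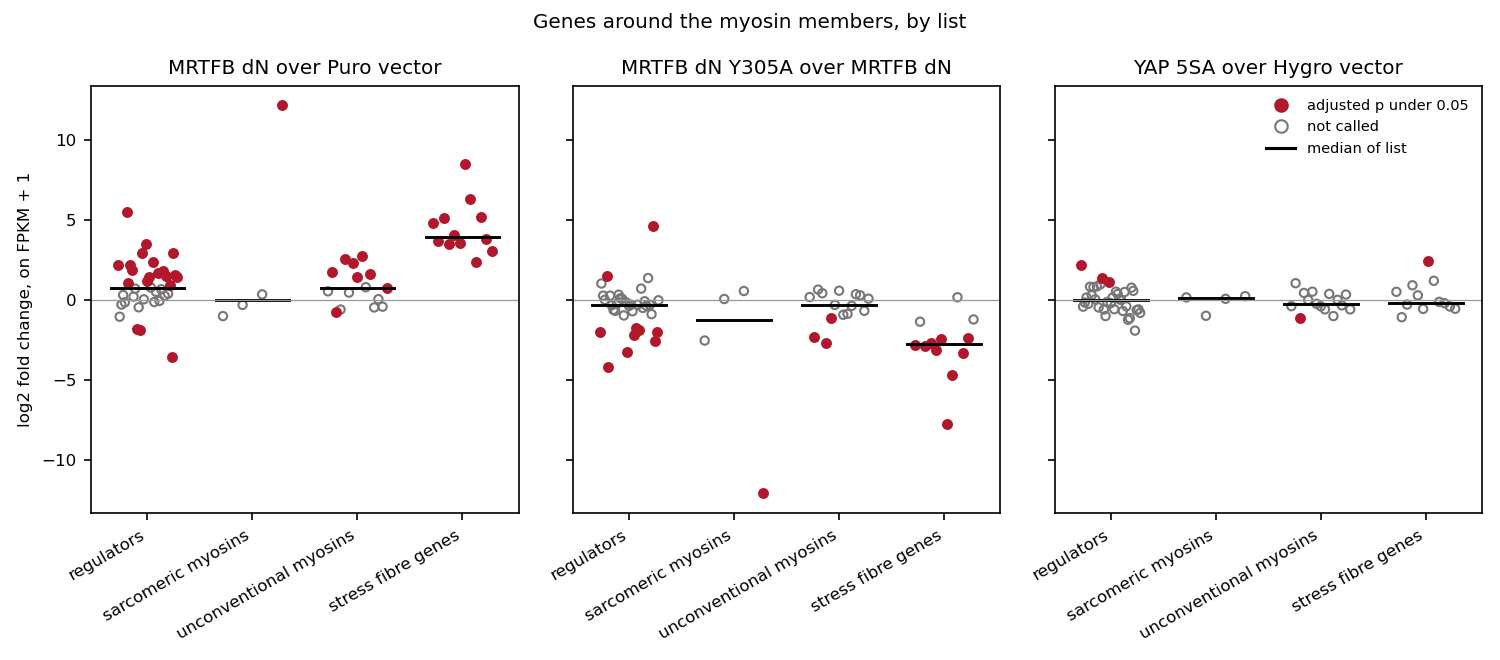
log2 fold change (on FPKM + 1) of each tested gene in the 4 lists around the myosin genes, in 3 comparisons, with filled red points where adjusted p is under 0.05 and bars at the list median. All 12 stress fibre genes are filled and above 0 in MRTFB dN over the Puro vector, and the lone point near 12 is MYL7.

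The named loci most like MYL9 and MYLK over the 14 libraries were ranked by Pearson r on log2(FPKM + 1), as a description only, since the libraries fall into separate groups. For MYL9 they were the joined locus of PAFAH1B2, SIDT2 and TAGLN (0.996), PALLD (0.987), C12orf54 (0.981), TDG (0.979) and FERMT2 (0.979). For MYLK they were C1orf110 (0.997), ACTG2 (0.997), ANKRD45 (0.996), LMOD1 (0.996) and NREP (0.996). TAGLN and ACTG2 are known as smooth muscle genes of the actin cytoskeleton, and PALLD and FERMT2 as genes of stress fibres and focal adhesions. Within the set, r with MYL9 was 0.964 for MYLK, 0.835 for MYH9, 0.762 for MYL6, 0.745 for MYL12A, 0.616 for MYL12B, 0.174 for MYH14, -0.498 for MYH10 and -0.511 for MYH11. All points share the 14 libraries.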

How the data were processed

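RNA of 14 MCF-10A libraries was sequenced as paired reads of 75 bases. The deposited values are FPKM, for which the submitters' processing notes list Cuffnorm, Cufflinks, TopHat and Bowtie, without versions, and the build hg19. FPKM hold no counts, so no count test was run and depth is known only relatively.

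Samples were grouped by their labels. The tests took the 13137 named loci that reached 1 FPKM in 2 libraries or more, on the log2(FPKM + 1) scale, in limma 3.58.1 (R 4.3.3), all 7 groups in 1 fit with a mean-dependent prior, and Benjamini-Hochberg adjustment within each comparison at 0.05. Residual degrees of freedom were 7, or 6 where a library was missing. The zeros of MRTFB dN dPY replicate 1 on chromosomes 8, 9, X and part of 7 (4048 named loci) were treated as missing, which touches CALD1, FLNA, TPM2, ZYX and DAPK1 among the tested list genes. Shares of summed FPKM were compared by exact permutation tests. The method was tested on simulated data. Tables and figures used Python 3.11.15, numpy 2.4.6, pandas 2.3.3 and matplotlib 3.10.9.

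Genes outside the set are named, unless said otherwise, where they were among the 4 of each list with the largest called change at a mean of at least 3 FPKM. The members and the gene lists were chosen with earlier results of these data known. Promoters are from RefSeq (GRCh38.p14); MYL9 and MYH11 had none. Alternatives were to leave out each library, exchange the vectors, block on the replicate number, keep zeros as values, rescale by the median of ratios, drop the filter, and lower the pseudocount to 0.1.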

Additional observations from a re-analysis of the deposited data

Results flagged for a closer look

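The difference between the response to MRTFB dN over the Puro vector and the response to YAP 5SA over the Hygro vector passed the interaction test of limma for 7 genes. On the log2(FPKM + 1) scale it was 10.77 for MYL9, 10.69 for MYLK, 5.79 for MYH14, 5.43 for MYH9, 4.75 for MYL6, 3.36 for MYL12A and -2.28 for MYH11. MYH11 entered the tests mainly through the Puro vector, where it was highest, so its call is a description only. With the vectors exchanged only MYL9 and MYLK passed, and MYH14 and MYH11 changed direction.

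The second locus with the symbol MYLK, which no comparison used, had its lowest value in the SRF-binding forms at 17.71 FPKM, against a highest value of 9.959 FPKM in the vector libraries.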

How the results depend on the processing

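Of the 44 calls among the 9 genes, 43 were kept with a pseudocount of 0.1, 34 with no filter, 43 with scaling by the median of ratios, 44 with the replicate block and 40 with zeros kept as values. With the other vector as control 12 of 33 were kept. Among member values past the threshold in neither fit, 62 of 535 changed sign.

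Replicate numbers did not pair the samples by the labels. Deviations of same-numbered libraries correlated at 0.301 to 0.645 between MRTFB groups and at -0.0537 to 0.0668 between constructs and vectors, and at 0.233 between the vectors. Within replicate blocks the difference in share was 63.15 percentage points for MYL9 and 9.69 for MYH9, each with an exact permutation p = 0.12, the smallest that 4 pairs allow. The block left 20 genes called in MRTFB dN dPY against MRTFB dN, where 31 were called without it. With the MRTFB groups alone and the block, 6 myosin genes and 4903 genes in all were called in MRTFB dN Y305A against MRTFB dN, 6 and 4747 in MRTFB dN Y305A/dPY against MRTFB dN dPY, and 11 genes when dPY was added to MRTFB dN Y305A.

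With the other vector as control the myosin genes called were 5 in MRTFB dN, 0 in MRTFB dN Y305A, 1 in MRTFB dN Y305A/dPY and 2 in the interaction. The genes called in all were 2510 in MRTFB dN, 2696 in MRTFB dN dPY, 342 in MRTFB dN Y305A, 353 in MRTFB dN Y305A/dPY and 1727 in the interaction. Directions turned for MYH14 in MRTFB dN (-1.22), in MRTFB dN Y305A/dPY (-1.18), in YAP 5SA (0.38) and in the interaction (-1.61), and for MYH11 in MRTFB dN Y305A (0.05), in MRTFB dN Y305A/dPY (0.36), in YAP 5SA (-1.85) and in the interaction (1.61). The cause was not tested.

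With no filter the myosin genes called were 0 in YAP 5SA, 2 in MRTFB dN Y305A, 2 in MRTFB dN Y305A/dPY and 3 between the vectors. Of all 21280 loci then tested, 872, 3134, 3218 and 1560 were called, in the same order. With no filter 94 genes were called in MRTFB dN dPY against MRTFB dN. With a pseudocount of 0.1 that comparison gave 1 gene, and adding dPY to MRTFB dN Y305A gave 0, where 2 were called with a pseudocount of 1. With zeros kept as values 3 myosin genes and 2533 genes in all were called in MRTFB dN Y305A/dPY over the Puro vector. That setting gave 1 gene when dPY was added to MRTFB dN Y305A and 1198 genes between the vectors.

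With the 4 MRTFB libraries of 1 replicate number left out together, the difference in share was 59.18 or 67.12 percentage points for MYL9 and 9.594 or 9.786 for MYH9. With 1 of the 8 MRTFB libraries left out in turn it was 61.22 to 64.54 for MYL9 and 8.758 to 10.22 for MYH9, each with an exact permutation p = 0.057, the smallest that 3 against 4 allow. With MYL7 in the sum the difference for MYL9 was 30.04 percentage points. With 1 library left out in turn, the myosin genes called were 0 to 1 in YAP 5SA, 0 to 4 in MRTFB dN Y305A, 0 to 6 in MRTFB dN Y305A/dPY and 1 to 4 between the vectors. The genes called in all were 142 to 755 in YAP 5SA, 2016 to 4880 in MRTFB dN, 2417 to 4726 in MRTFB dN dPY, 133 to 4037 in MRTFB dN Y305A and 371 to 3866 in MRTFB dN Y305A/dPY, each over its vector. They were 1256 to 1411 in MRTFB dN Y305A against MRTFB dN, 1178 to 1524 in MRTFB dN Y305A/dPY against MRTFB dN dPY, 5 to 22 in MRTFB dN dPY against MRTFB dN, 436 to 2418 between the vectors and 1881 to 4626 in the interaction. Where a group is left with 1 library, that library is assumed to vary like the others. Summing all loci of a gene was not run, since 8 of the 9 genes have 1 locus. With 2 libraries a group, changes of the size of the intervals given above are not detectable.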
